A study of Arabidopsis thaliana with 6 samples.

Results

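The auxin response genes described here are the nuclear protein-coding genes of Arabidopsis thaliana whose primary symbol in the RefSeq gene table (assembly TAIR10.1) is IAA, ARF, GH3 or SAUR followed by a number. The symbols chose 67 of 27444 nuclear protein-coding genes: 24 IAA, 20 ARF, 5 GH3 and 16 SAUR genes, and 2 genes that carry the symbols ARF1 (AT1G23490) and ARF3 (AT2G24765) but are ADP-ribosylation factors by the synonyms of the table. The last 2 belong to vesicle traffic and not to auxin response; neither had a peak in any list, so they enter the totals of members without a peak only. A further 78 genes carry such a name among their synonyms only. They include AXR3 (IAA17), MP (ARF5) and most SAUR genes, whose primary symbol is the locus tag, and they are described separately at the end.

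Auxin acts by removing repressors. The Aux/IAA proteins (IAA genes) bind auxin response factors (ARF genes) and, with TOPLESS co-repressors, keep target genes silent, until auxin brings them to the receptor TIR1 or its AFB relatives for destruction. ARF proteins bind DNA and activate or repress the targets, among which are many IAA genes themselves, GH3 genes, most of whose products conjugate auxin to amino acids and so lower its level, and SAUR genes, whose small proteins promote cell expansion in many tissues. Polycomb repressive complex 2, which methylates lysine 27 of histone H3, is known to mark many developmental genes in plants, including genes of the auxin pathway.

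Binding of SWINGER (SWN), a catalytic subunit of that complex, was mapped by chromatin immunoprecipitation with a GFP antibody and sequencing in whole seedlings 14 days old. All plants were swn mutants with a SWN-GFP transgene driven by the SWN promoter (pSWN:SWN-GFP). In 2 libraries VAL1 and VAL2, B3-domain DNA-binding repressors, were intact (called control here and SWN-GFP in the plots), and 2 libraries came from the val1 val2 double mutant, which shares the swn mutation and pSWN:SWN-GFP; 2 input libraries, 1 of each genotype, entered no comparison. The mutant alleles, the transgenic lines and the number of plants per library are not stated in the labels, so the spread between replicates may be technical, and in whole seedlings a weak peak from all cells cannot be told apart from a strong one in a few.

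Each library has its own list, with 8189 and 8666 peaks in the control and 9177 and 9618 in val1 val2. The lists hold no read totals, so the depth of the libraries is unknown, and a missing peak shows only that the peak caller's threshold was not passed. A gene was occupied in a list when a peak overlapped its span by 1 bp or more. A gene with a peak in all 4 lists is called kept, one with peaks in the 2 control lists but in neither val1 val2 list is called lost, the reverse is called gained, and other patterns are called mixed. The covered length of a gene is the number of bp of its span under peaks. The fold of a peak is the authors' ratio of its summit pileup to local background, and its percentile is the rank of that fold within its own list; folds of different lists stand side by side without a test. With 2 libraries against 2, the smallest possible p of the exact two-sided permutation test is 0.333, so no difference between the genotypes in a single value could pass 0.05.

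The families differed in how often they carried SWN-GFP peaks. Per list, 20, 22, 23 and 23 members had a peak, where 18.9%, 19.7%, 20.5% and 21.5% of all nuclear protein-coding genes had one. Peaks lay in both control lists at 20 of the 67 members (29.9%), where the background share was 16.9% of all nuclear protein-coding genes. Among the IAA genes 14 of 24 (58.3%) were so occupied, among the GH3 genes 2 of 5, among the ARF genes 2 of 20 and among the SAUR genes 2 of 16 (12.5%). In both val1 val2 lists, 22 members had a peak (32.8%, against a background of 17.9%): 15 IAA, 4 GH3, 1 ARF and 2 SAUR genes. The shares lay above the background for the IAA and GH3 genes. They lay below it for the ARF and SAUR members, but rest on 1 or 2 occupied genes in each of these families. The ARF share in both control lists, 10.0%, was near the 11.9% of all nuclear protein-coding genes over 2500 bp. The median span of the ARF members was 3362 bp. These shares were not tested, because the members were chosen with earlier results of the same data known.

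Most occupied members kept a peak without VAL1 and VAL2. A peak in any list was found at 25 of the 67 members (background 29.0%). Of the 67 members 18 were kept (26.9%, background 12.6%), 1 was lost (1.49%, background 2.70%), 2 were gained (2.99%, background 3.61%), 4 were mixed (background 10.0%) and 42 had no peak in any list (background 71.0%). At this setting the shares of lost and gained members are near the background. With only peaks of a fold of at least 4, 4 members were gained and 2 lost, against 1.21% and 1.94% of all nuclear protein-coding genes. Among the strongest 2000 peaks of each list 4 were gained and 1 lost, against 1.44% and 1.61%. The gained members at both settings, IAA13, IAA15, IAA16 and ARF8, had a peak in all 4 full lists. They are thus peaks that crossed a cut-off, not peaks absent from the control. In the full lists the lost member was ARF6 and the gained ones were IAA12 and IAA18. The mixed ones were IAA14, ARF10, GH3.4 and GH3.9.

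**Figure D1:**
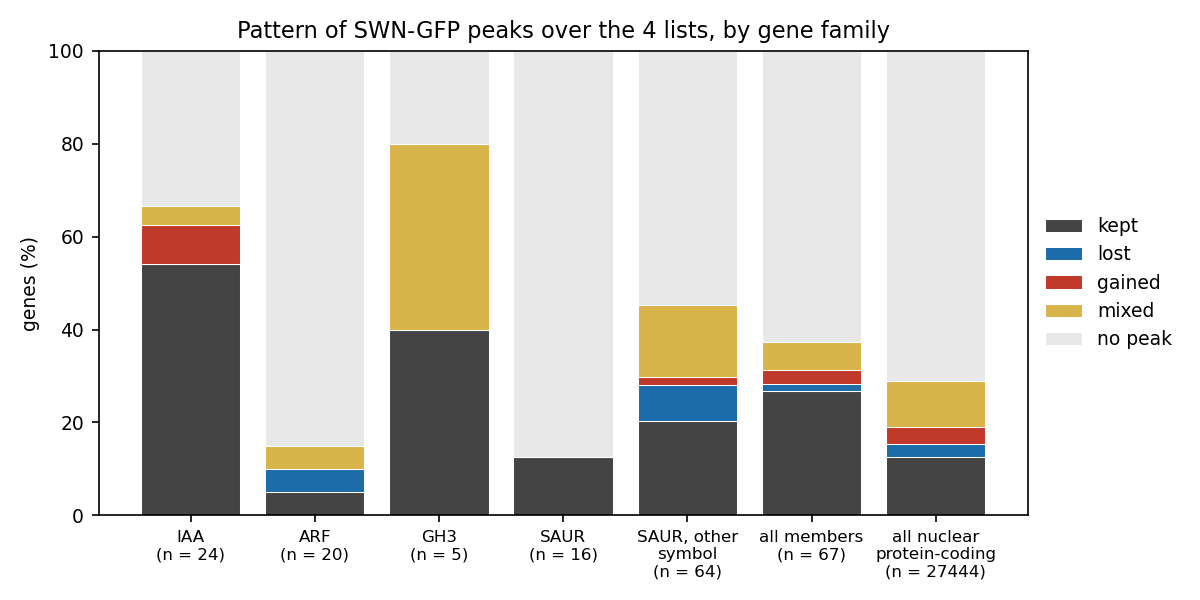
Share of genes (%) of each family by pattern of peaks over the 4 lists: kept (all 4), lost (both SWN-GFP lists only), gained (both SWN-GFP val1 val2 lists only), mixed and no peak. IAA genes are mostly kept (13 of 24), and ARF and SAUR members mostly have no peak (17 of 20 and 14 of 16). The SAUR genes under another primary symbol (n = 64) hold 5 of the 6 lost genes among the 143 genes of the 4 families under any symbol. These 5 are 7.81% of the 64, where 2.70% of all nuclear protein-coding genes were lost.

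The families differ in gene length, and the part of length in their occupancy was not tested. The median span was 3362 bp for the ARF members, 1717.5 bp for the IAA members and 738.5 bp for the 16 SAUR members. The 64 SAUR genes under another symbol had a median span of 848 bp, and 32.8% of them had a peak in both control lists. Among members with a span over 1000 and up to 2500 bp, 12 of 24 had a peak in both control lists, against 20.0% of all nuclear protein-coding genes of that length. Of members over 2500 bp 6 of 28 did, against 11.9%, and of members up to 1000 bp 2 of 15, against 19.5%.

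The peaks at members rarely overlapped another gene. Between 23 and 29 peaks per list overlapped a member, and no peak overlapped 2 members. Only 1 peak, in val1 val2 replicate 1, also overlapped another protein-coding gene. The same count over all peaks is not given here, so this is not shown to be particular to the members. The strongest peak with its summit inside a member lay, by the median, nearer an end of the span than over all nuclear protein-coding genes. Its median distance from the nearer end of the span was 13.7% and 13.3% of the span in the control lists and 12.9% and 11.7% in the val1 val2 lists, against 20.1%, 19.8%, 18.2% and 17.7% over all nuclear protein-coding genes. Single members differed, and at SAUR36 the summit lay near the middle in the control lists, at 48.9% and 48.0%. The gene table gives no strand, so the end cannot be named as the start of transcription.

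The IAA genes with the strongest peaks in the control lists were IAA1, IAA2 and IAA7, which encode Aux/IAA repressors. Dominant alleles of IAA1 (AXR5) and IAA7 (AXR2) make plants auxin resistant. IAA1 (AT4G14560) had a fold of 14.5 and 13.1 in the control lists and of 9.64 and 8.40 in the val1 val2 lists. Its control peaks lay at chr4:8360454-8362069 and chr4:8360496-8362022 (TAIR10) and covered 1038 and 1027 bp of a span of 1038 bp. In the double mutant 815 and 968 bp were covered, below both control values.

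IAA2 (AT3G23030) was the only member whose whole span of 1450 bp lay under a peak in both control lists. In the val1 val2 lists 1389 and 1433 bp were covered, a small difference. The fold at IAA2 was 12.0 and 11.7, then 10.5 and 8.85, within percentiles 97.3 to 98.3 of all lists. IAA7 (AT3G23050), which lies near IAA2 on chromosome 3, was covered over 2539, 2230, 2309 and 2466 bp in the 4 lists, with genotypes that overlap. Its fold was 11.9 and 9.70 in the control and 11.5 and 11.7 in val1 val2.

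IAA14 (SOLITARY ROOT, AT4G14550), the close relative of IAA7 that represses lateral root formation, lies near IAA1 on chromosome 4 and showed a different pattern. It was covered over 716 and 775 bp in the control lists, over 0 bp in val1 val2 replicate 1 and over 254 bp in replicate 2. The genotypes did not overlap. The peaks at IAA14 were weak, with a fold of 2.79 and 2.89 in the control (percentiles 35.0 and 46.1) and of 2.35 in the single val1 val2 list that had one. Without val1 val2 replicate 2, IAA14 would count as lost.

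The opposite order was seen most clearly at IAA16 (AT3G04730), a repressor of the IAA7 and IAA14 group. Peaks covered 512 and 326 bp of it in the control lists and 1276 and 1486 bp in the val1 val2 lists, or 419 ± 132 and 1381 ± 148 bp (mean ± SD, n = 2 each). The fold was 3.55 and 3.51 in the control, at percentiles 62.2 and 64.8, and 9.05 and 9.70 in val1 val2, at percentiles 97.1 and 97.8. The peaks of the double mutant lay at chr3:1289476-1290751 and chr3:1289264-1290749, and those of the control at chr3:1290164-1290675 and chr3:1290325-1290650. All 4 lie over the same part of the gene, and the longer ones contain the shorter ones. No other member differed as much in covered length.

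IAA12 and IAA13, close relatives that act with ARF5 in embryo and root patterning, were both covered more in the double mutant. At IAA12 (BODENLOS, AT1G04550) no control list had a peak, and 315 and 325 bp were covered in the val1 val2 lists, with a fold of 3.02 in both. At IAA13 (AT2G33310) the covered length was 227 and 221 bp in the control and 628 and 620 bp in val1 val2. Its fold was 2.87 and 2.47 (percentiles 39.5 and 22.4), then 5.53 and 6.95 (percentiles 89.1 and 94.6). IAA18 (AT1G51950), the other gained gene, had only weak peaks, of 204 and 283 bp with a fold of 2.28 and 2.76, at percentiles 10.9 and 47.0 of the val1 val2 lists.

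IAA15 (AT1G80390) was covered over 458 and 494 bp in the control and 770 and 812 bp in val1 val2, again without overlap. The summit of its peak lay inside the gene in 1 of the 4 lists only, and outside the span in the other lists. IAA19 (MASSUGU 2, AT3G15540), which acts in tropic growth, was covered over 795 and 900 bp, then 1015 and 936 bp, and IAA29 (AT4G32280) over 336 and 370 bp, then 752 and 337 bp. At IAA29 the genotypes overlapped.

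IAA20, IAA30 and IAA33 belong with IAA31, IAA32 and IAA34 to the Aux/IAA proteins that lack all or part of the degron by which auxin marks the others for destruction. IAA20 (AT2G46990) had strong peaks in all lists, with a fold of 8.52 and 9.52 in the control and of 8.13 and 9.78 in val1 val2. Its covered length was 772 and 762 bp, then 981 and 871 bp. Its relative IAA30 (AT3G62100) went the other way, with 667 and 637 bp in the control and 365 and 415 bp in val1 val2. The fold at IAA30 was 5.61 and 4.09, then 2.32 and 3.23, which put it at percentiles 86.0 and 74.4 and then 12.4 and 63.8.

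IAA33 (AT5G57420) was covered over 213, 371, 404 and 522 bp, all in weak peaks with a fold of at most 2.81. IAA31, IAA32 and IAA34 had no peak. Of these 6 genes 3 were thus kept, where 10 of the other 18 IAA genes were.

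IAA5 (AT1G15580) and IAA6 (SHY1, AT1G52830) complete the occupied IAA genes. IAA5 was covered over 374 and 287 bp in the control and 235 and 223 bp in val1 val2, and IAA6 over 980 and 870 bp, then 798 and 760 bp. The genotypes did not overlap at either. IAA8, IAA9, IAA10, IAA11 and IAA28 had no peak in their span in any list. At IAA10 a peak of val1 val2 replicate 2 ended 26 bp from the span and one of replicate 1 ended 141 bp from it, so that IAA10 counts as gained when 1000 bp on either side are included.

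By covered length, the occupied IAA genes went both ways. Among the 16 IAA genes that had a peak, 6 were covered less in the val1 val2 lists (both values below either control value), 8 more (both above), and 2 overlapped. The background was 24.9% less and 30.1% more, over nuclear protein-coding genes that had a peak. Summed over the 24 IAA genes the covered length was 11.1 and 10.7 kb in the control and 12.3 and 12.7 kb in val1 val2 (exact permutation p = 0.333, n = 2 each).

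**Figure D2:**
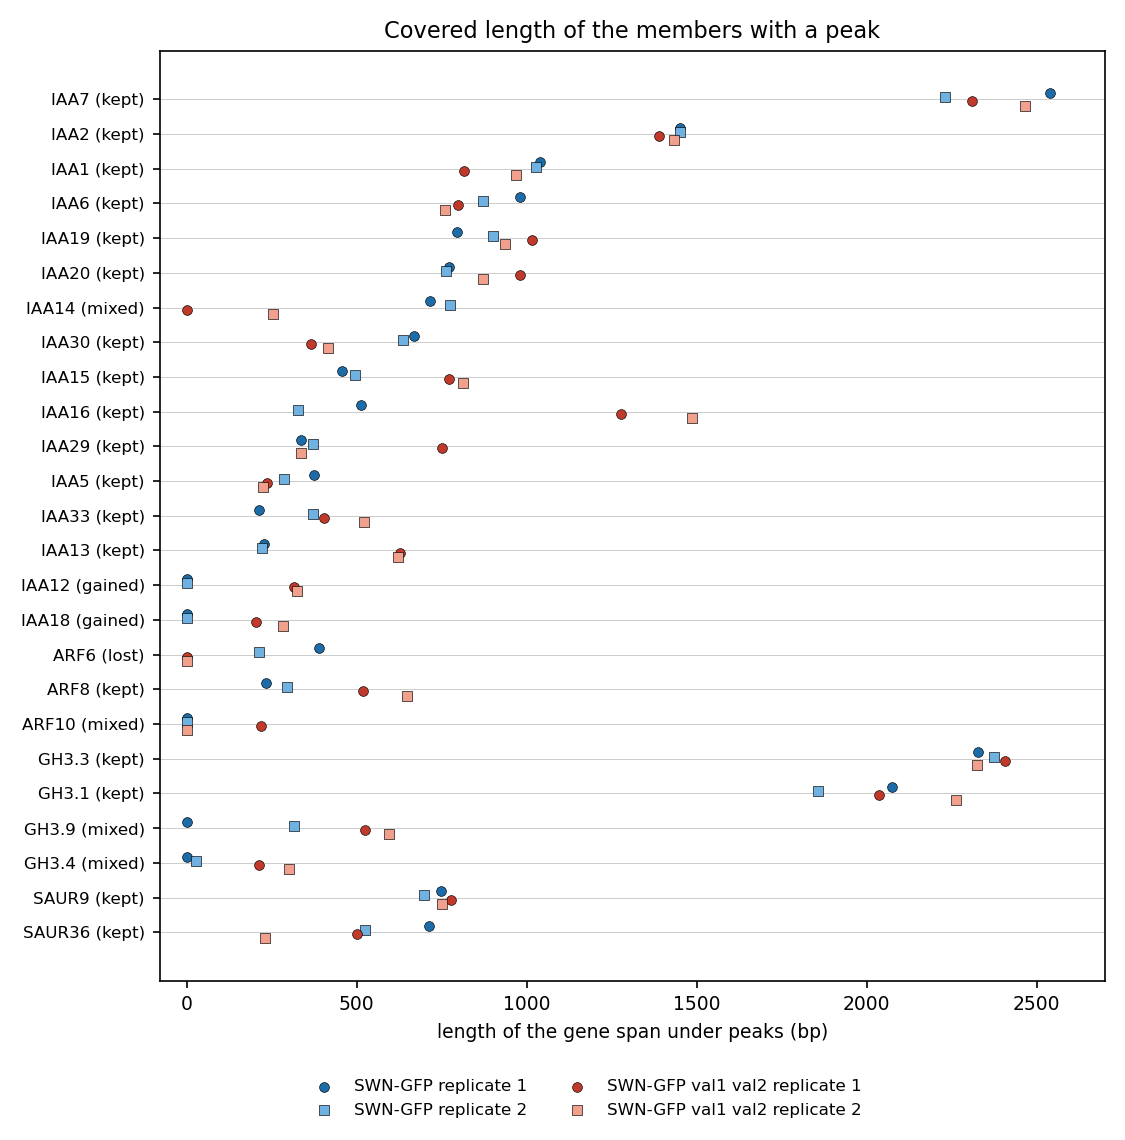
Length of the gene span under peaks (bp) in each of the 4 libraries for the 25 members with a peak in any list, ordered within families by the mean in SWN-GFP. IAA16 lies at 512 and 326 bp in SWN-GFP and reaches 1276 and 1486 bp without VAL1 and VAL2, while IAA14 and IAA30 lie in the opposite order.

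No peak in any list lay at 17 of the 20 ARF members, where 71.0% of all nuclear protein-coding genes had none. The 3 exceptions are genes whose transcripts are known microRNA targets, ARF6 and ARF8 of miR167 and ARF10 of miR160. ARF6 (AT1G30330) and ARF8 (AT5G37020) are closely related activators that promote flower maturation. ARF6 had peaks at chr1:10690519-10690907 and chr1:10690776-10691104 in the control lists and none in its span in val1 val2. These peaks covered 389 and 213 bp of a span of 5167 bp and were weak, with a fold of 2.75 and 2.44 at percentiles 33.0 and 20.6. The nearest val1 val2 peak lay 446 bp from the span in replicate 1 and only 4 bp from it in replicate 2. With a −log10 q of at least 5 ARF6 was not lost but mixed, and with 1000 bp on either side ARF6 had a peak in all 4 lists.

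ARF8 showed the opposite order. Its covered length was 232 and 295 bp in the control and 519 and 648 bp in val1 val2, 263.5 ± 44.5 and 583.5 ± 91.2 bp (mean ± SD, n = 2 each). The fold was 2.64 and 2.43 at percentiles 26.3 and 19.9, then 5.18 and 4.93 at percentiles 87.0 and 86.6. In all 4 lists the summit lay at an end of the gene, at most 3.18% of the span from it. With only peaks of a fold of at least 4, ARF8 counts as gained.

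ARF10 (AT2G28350) had a peak of 218 bp in val1 val2 replicate 1 only, with a fold of 2.64. The other targets of miR160, ARF16 and ARF17, had none. ARF19, an activator of lateral root formation, and ARF1, ARF2, ARF4, ARF9, ARF11 and ARF18, which are counted among the repressors, had none in their spans either. The nearest peak of any list lay 566 bp from ARF19, 640 bp from ARF2 and 210 bp from ARF11. All 8 genes of the chromosome 1 clade, ARF12 to ARF15 and ARF20 to ARF23, lacked a peak in every list. Members of this clade are similar to each other, and how reads that map to several places were treated is not given in the sources used here, so a missing peak at them is uncertain.

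GH3.3 and GH3.1 were covered over most of their spans in all 4 lists. GH3.3 (AT2G23170), whose enzyme conjugates auxin to amino acids, was covered over 2327 and 2373 bp in the control and 2407 and 2324 bp in val1 val2, of a span of 2708 bp. Its covered length overlapped between the genotypes although the fold was 11.6 and 10.6 in the control and 6.31 and 6.48 in val1 val2. The summit pileup was 130 and 127 fragments, then 68 and 83, as deposited. GH3.1 (AT2G14960) was covered over 2075, 1857, 2037 and 2262 bp, with a fold of 6.33 and 5.21, then 4.90 and 4.86.

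GH3.4 and GH3.9 had a peak in 3 lists each, all but control replicate 1. GH3.9 (AT2G47750) was covered over 0 and 316 bp in the control and 525 and 594 bp in val1 val2. GH3.4 (AT1G59500) was covered over 0 and 26 bp, then 213 and 300 bp; the overlap of 26 bp is the smallest of any member and stands just inside the rule of 1 bp. Without control replicate 2 both would count as gained. GH3.17 (AT1G28130) had no peak in its span, and the nearest lay 399 bp away. Over the 5 GH3 genes the covered length summed to 4.40 and 4.57 kb in the control and 5.18 and 5.48 kb in val1 val2 (exact permutation p = 0.333, n = 2 each).

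Only SAUR9 and SAUR36 of the 16 SAUR members carried a peak, and both were kept. SAUR9 (AT4G36110), whose protein inhibits PP2C.D phosphatases and so activates proton pumps of the plasma membrane, was covered over 748 and 697 bp, then 778 and 752 bp. Its fold was 4.91 and 4.50 in the control (percentiles 81.3 and 79.2) and 8.53 and 9.16 in val1 val2 (percentiles 96.6 and 97.5). SAUR36 (SAG201, AT2G45210), a gene linked to leaf senescence, was covered over 714 and 523 bp, then 502 and 231 bp, with a fold of 3.82 and 3.22, then 2.66 and 2.21.

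The 14 SAUR members without a peak include those in rows of neighbouring copies. SAUR19, SAUR20, SAUR22, SAUR23 and SAUR24 on chromosome 5, known to promote hypocotyl growth, had none, nor did SAUR26 to SAUR29 on chromosome 3 or SAUR63 and SAUR68 on chromosome 1. No peak lay within 1000 bp of any of the 14, and the nearest was 1223 bp away. As for the chromosome 1 ARF genes, such copies are similar in sequence and their lack of peaks is uncertain. The symbol SAUR21 is the primary symbol of AT5G01830 and a synonym of AT5G18030, which lies near SAUR20, and neither had a peak. AT5G01830 spans 2865 bp, where the median of the SAUR members was 738.5 bp. Whether it encodes a SAUR protein was not checked, and it enters the SAUR members by symbol only. The distance of 1223 bp is that of AT5G01830, and the next nearest was 1902 bp, at SAUR23.

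Peaks at or above percentile 90 of their list by fold lay at members of 3 families. In both control lists they were found at IAA1, IAA2, IAA7, IAA20 and GH3.3, 5 of 67 members where 2.63% of all nuclear protein-coding genes had such a peak. In both val1 val2 lists they were found at 8 members, against 2.81%: those 5 and IAA16, IAA19 and SAUR9. The median percentile over occupied members was 74.6 and 73.1 in the control lists and 85.3 and 86.1 in the val1 val2 lists, against 63.7, 64.5, 63.5 and 63.6 over all occupied nuclear protein-coding genes. Each percentile is a rank within a list of its own length and does not by itself show a change.

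**Figure D3:**
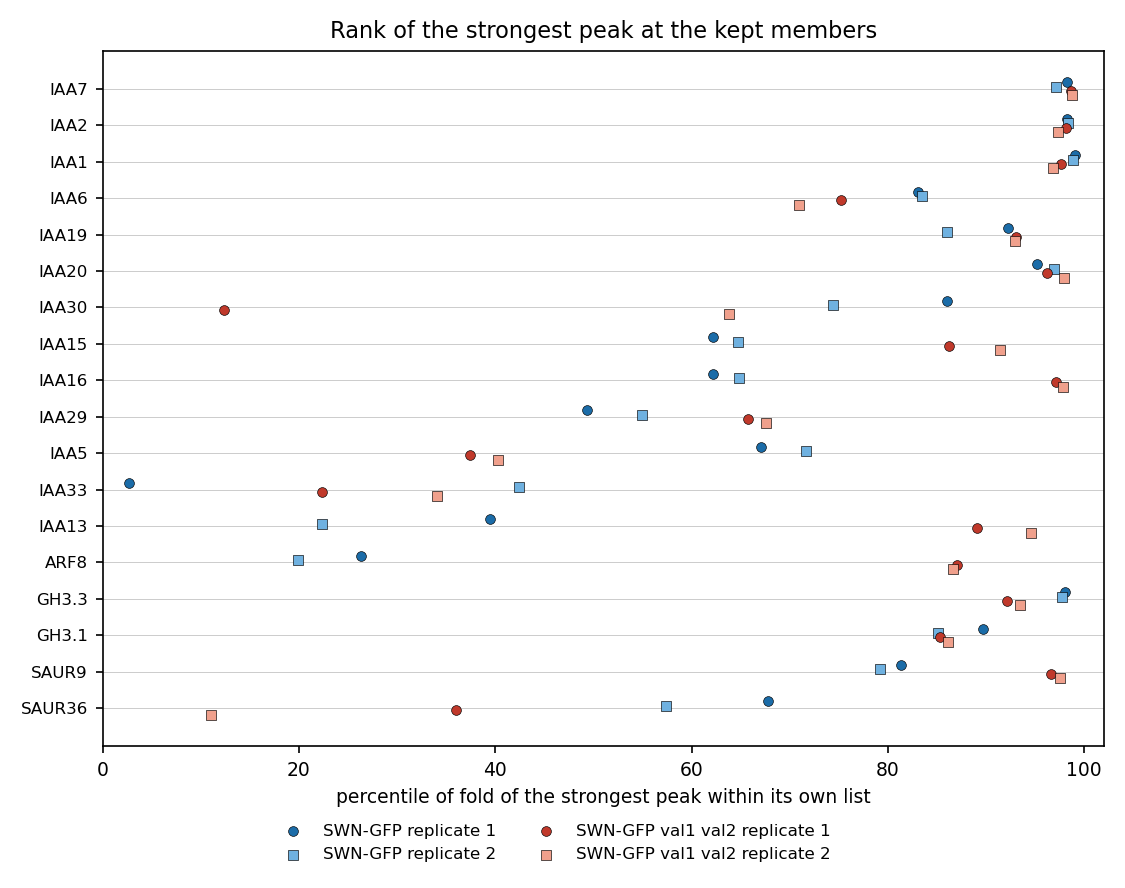
Percentile of fold of the strongest overlapping peak within its own list for the 18 kept members, in each of the 4 libraries. IAA16, IAA13 and ARF8 rank higher in both SWN-GFP val1 val2 lists, SAUR36, IAA5 and IAA6 rank lower, and IAA1, IAA2, IAA7 and IAA20 stay above percentile 95 in all 4.

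Summed over the 67 members, the covered length was 17.6 and 17.0 kb in the control and 19.5 and 19.8 kb in val1 val2, a difference of 13.6% in the means (exact permutation p = 0.333, n = 2 each). Over all nuclear protein-coding genes the same difference was 2.51%. Among the 25 members that had a peak, 8 were covered less and 12 more (32.0% and 48.0%, background 24.9% and 30.1%). Close relatives did not always share a direction: ARF6 and IAA30 were covered less, and their relatives ARF8 and IAA20 more. IAA14 was covered less, while at its relative IAA7 the genotypes overlapped. IAA12 and IAA13 were both covered more, and IAA1 and IAA2 both less.

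The direction of this sum depended on which symbols were counted. When the 78 genes with an IAA, ARF, GH3 or SAUR name among their synonyms were added, the summed covered length was 34.8 ± 1.22 kb in the control and 33.1 ± 0.103 kb in val1 val2 (SD, n = 2 each), a difference of -5.00% (exact permutation p = 0.333). The genes under other symbols had a peak in both control lists at 24 of 78 (30.8%, background 16.9%), and 5 of them were lost, 3 gained, 16 kept and 13 mixed. The lost share was 6.41% (background 2.70%), the gained share 3.85% (3.61%) and the kept share 20.5% (12.6%), and the background for mixed was 10.0%.

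SAUR genes made up 64 of these 78, and they leaned to less coverage in the double mutant. Peaks lay in both control lists at 21 of the 64 (32.8%). Among the 29 that had a peak, 17 were covered less and 4 more (58.6% and 13.8%, against a background of 24.9% and 30.1%). Their summed covered length was 13.3 and 14.8 kb in the control and 8.86 and 9.69 kb in val1 val2, a difference of -33.8% (exact permutation p = 0.333, n = 2 each). The 16 SAUR members gave 1.46 and 1.22 kb, then 1.28 and 0.983 kb, where the genotypes overlapped (exact permutation p = 0.667, n = 2 each).

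The 5 lost SAUR genes were SAUR77 (AT1G17345), SAUR53 (AT1G19840), SAUR40 (AT1G79130), SAUR49 (AT4G34750) and SAUR70 (AT5G20810). They were 7.81% of the 64, against a background of 2.70%. SAUR77 had the strongest peaks of them, over 999 and 889 bp in the control lists with a fold of 5.90 and 7.36 at percentiles 87.9 and 93.4. The control peaks of the others were weaker, with a fold from 2.52 (SAUR53) to 3.61 (SAUR70). SAUR49 was covered over 706 and 953 bp, and the nearby SAUR50 (AT4G34760) was kept, with its whole span of 893 bp under peaks in the control and 827 and 880 bp in val1 val2. Beside SAUR70, lost with 738 and 638 bp, lay SAUR76 (AT5G20820), kept with 700, 700, 654 and 700 bp. Neighbouring SAUR genes thus differed in pattern, but the lost ones also had the weaker control peaks. The fold was 3.27 and 2.73 at SAUR49 and 5.95 and 5.67 at SAUR50. It was 3.61 and 2.98 at SAUR70 and 7.68 and 7.71 at SAUR76.

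Among the kept SAUR genes of this group 10 of 13 were covered less and 1 more, where 27.1% and 31.2% of all kept nuclear protein-coding genes were. SAUR11 (AT5G66260) had its whole span of 563 bp under peaks in both control lists and 60 and 46 bp in the val1 val2 lists. SAUR52 (AT1G75590) was covered over 801 and 744 bp, then 340 and 324 bp. SAUR31 (AT4G00880) was the gained gene, with 690 and 699 bp and a fold of 4.35 and 4.32 in the val1 val2 lists. The rows of copies on chromosome 1 that hold SAUR61 to SAUR66 and SAUR68 had no peak under any symbol.

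Of the other genes named by synonym, AXR3 (IAA17, AT1G04250), a repressor whose stable form blocks root auxin responses, was covered over 1248 and 1559 bp in the control and 718 and 222 bp in val1 val2, with a fold of 5.81 and 6.10, then 2.94 and 2.63. SHY2 (IAA3), near it on chromosome 1, had no peak. MP (ARF5) had 1 weak peak, in val1 val2 replicate 1, and ETT (ARF3) and NPH4 (ARF7) had none. Of the 11 GH3 genes under any symbol 9 had a peak, and of these 9 none was covered less in the double mutant and 5 were covered more (background 24.9% and 30.1%). JAR1, which conjugates jasmonate to isoleucine, and PBS3, which acts in salicylic acid synthesis, were gained with weak peaks of a fold of at most 2.73. BRU6 (GH3.2, AT4G37390) was covered over 1616 and 1888 bp, then 1982 and 2098 bp, while its fold was 7.99 and 8.42, then 5.58 and 5.87.

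**Figure D4:**
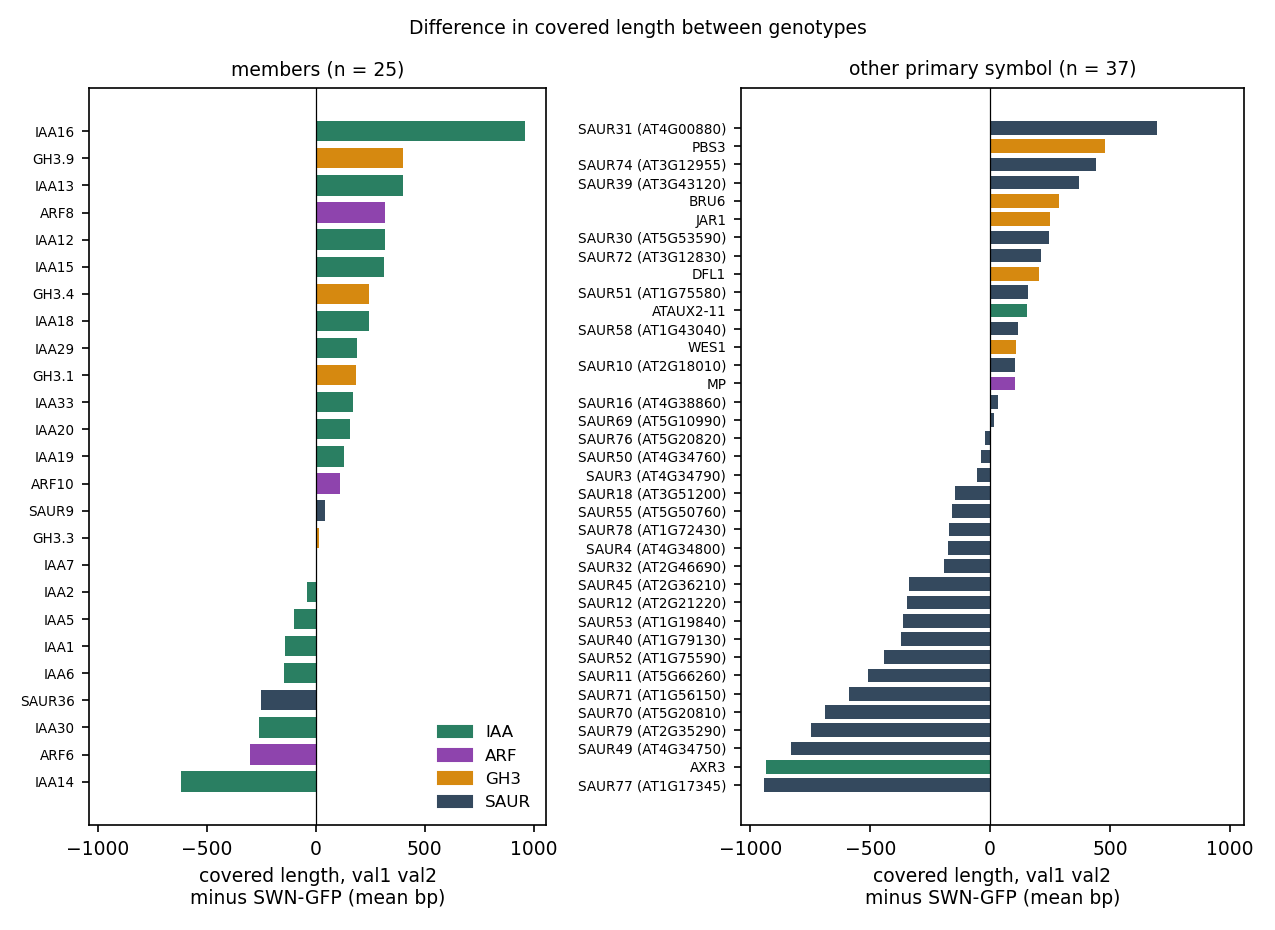
Mean covered length (bp) in SWN-GFP val1 val2 minus SWN-GFP for each gene with a peak in any list, for the 25 members and for the 37 genes that carry a family name only as a synonym, coloured by family. IAA16 stands at the positive end of the members, and SAUR genes fill most of the negative side on the right.

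The rest of the pathway was examined from a list of 31 genes chosen by their textbook roles, 9 of them microRNA genes. Peaks lay in both control lists at 11 of the 31, where the background for protein-coding genes was 16.9%. In all, 9 were kept, 2 lost, 2 gained and 3 mixed, where the background shares were 12.6%, 2.70%, 3.61% and 10.0%. The microRNA genes, with a median span of 133 bp, supplied 5 of the 11, 4 of the kept and 1 of the lost genes. The background shares, of protein-coding genes, do not describe them. Of the 6 receptor genes AFB2 (AT3G26810) was gained, with 396 and 242 bp and a fold of 2.72 and 2.70, TIR1 was mixed and the other 4 had no peak. Among the 5 co-repressor genes TPL (TOPLESS, AT1G15750) was gained, with 211 and 303 bp and a fold of 2.96 and 3.52, and TPR3 was kept with 221 and 301 bp, then 435 and 512 bp. SKP1, CUL1 and AXR1, which serve the receptor's ubiquitin ligase, had none.

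All 4 target genes on the list had a peak in both control lists. LBD16, LBD18 and LBD29, which start lateral roots downstream of ARF7 and ARF19, were kept, and HAT2, an auxin-induced homeobox gene, was lost, after 273 and 464 bp in the control. LBD16 was covered over 1506 and 1898 bp, then 1985 and 1985 bp, and LBD18 over 2193 and 1625 bp, then 1406 and 1377 bp. The influx carrier gene AUX1 was kept, with 1384 and 953 bp, then 1573 and 1674 bp, while LAX1 and LAX3 were mixed and LAX2 had no peak.

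Among the genes of microRNAs that target ARF and receptor transcripts, 4 of 9 were kept. MIR160a, MIR167a and MIR393a lay wholly under a peak in every list, but their spans of 85, 138 and 133 bp are shorter than these peaks. At MIR160a the summit lay outside the span in all 4 lists. It did so at MIR393a in all but val1 val2 replicate 1, and at MIR167a in control replicate 2. MIR167c was covered over 32 bp in control replicate 1 and over 160 bp in the other lists. The fold at MIR160a was 10.1 and 9.19, then 9.20 and 9.28. At MIR167a it was 4.28 and 3.89, then 7.63 and 6.81. MIR167d was lost, with weak peaks over 263 and 48 bp.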

How the data were processed

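Per the submitters' processing notes, Bowtie2, SAMtools, Picard and MACS2 were used with build TAIR10; of their roles, versions, settings and use of the inputs nothing is stated (not given in the sources used here). Each of the 4 immunoprecipitated libraries had 1 deposited list without header, read as a MACS2 table with 1-based coordinates. The deposited pileup is a signal, in whole fragments at the summit. The deposited −log10 p and −log10 q are the caller's own, with a lowest −log10 q of 1.31 to 1.33. The deposited fold is the authors' ratio over local background. Depth is unknown, so no counting interval could be given.

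Groups and replicate numbers came from the sample titles. Members and lists were chosen with earlier results of these data known. Gene spans and synonyms came from the RefSeq table of TAIR10.1, whose coordinates are not printed. To check that builds matched, summits were placed on the spans: 69.9% fell within one for the first control library, and 58.7% and 59.5% after shifts of 5000 bp. Overlaps, covered lengths and classes were computed with Python 3.11.15 and pandas 2.3.3 and tested on simulated peaks. For single values an exact permutation test (two-sided) was used. The rule for named genes took lost and gained members, the 6 largest non-overlapping differences in covered length per family, the 3 strongest per family and lost or gained pathway genes; other genes were named after their values were seen. TPR symbols shared with tetratricopeptide repeat genes were resolved by synonym, and ASK1 and SKP1 were counted once. The planned motif search and the split of IAA genes by degron letters were not run, because no sequence table was used here; the degron group follows textbook knowledge. Alternatives were the overlap rule, gene region, peak thresholds, list lengths, left-out replicates and, added after seeing the data, 2 other member sets.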

Additional observations from a re-analysis of the deposited data

How the results depend on the processing

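Counts of members occupied in both control lists (20), kept (18), lost (1), gained (2), covered less (8) and covered more (12) were within 1.5 times of these with a −log10 q of at least 5 and with lists of equal length; so were the 4 counts of peak patterns with an overlap of at least 200 bp or the summit inside the span (3 gained in each). The genes were not the same: with a −log10 q of at least 5 the lost member was IAA5, the gained ones were IAA12 and ARF8, and ARF6 and IAA18 were mixed. With 1000 bp on either side 5 members were gained, but the gained share over all genes also rose, from 3.61% to 4.89%. Over all genes 2.65% were lost and 2.77% gained with a −log10 q of at least 5. With lists of equal length these shares were 3.04% and 3.08%. With an overlap of at least 200 bp or the summit inside the span, the gained share over all genes was below 3.61%. With a fold of at least 4 there were 10 occupied, 8 kept, 2 lost (IAA6 and IAA30), 4 gained (IAA13, IAA15, IAA16 and ARF8), 4 covered less and 7 covered more, where the shares over all genes were 6.70%, 4.11%, 1.94% and 1.21%, and 27.1% and 23.8% of genes with such a peak. Among the strongest 2000 peaks of each list these were 9, 8, 1, 4, 3 and 7, against 5.81%, 3.67%, 1.61%, 1.44%, 25.5% and 26.2%. Leaving out 1 replicate gave 20 to 22 occupied, 18 to 20 kept, 1 to 2 lost and 2 to 4 gained. The shares over all genes were then 16.9% to 19.7%, 13.3% to 13.7%, 3.32% to 3.96% and 4.29% to 5.75%. Of the members 8 to 9 were covered less and 13 to 15 more. Of all genes with a peak, 30.0% to 36.4% were then covered less and 35.4% to 46.5% more. These shares lay above the 24.9% and 30.1% of the full set of lists. The 4 gained members came without control replicate 2 and the 2 lost without val1 val2 replicate 2.

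The summed covered length of the members differed by 11.8% to 15.4% without single replicates, always higher in val1 val2. Under the peak, region and list settings it differed by 12.4% to 21.8%, in the same direction. Over all nuclear protein-coding genes the difference was -0.509% to 5.54% without single replicates. Under the other settings it ran from -10.9% (fold of at least 4) to 4.55% (1000 bp on either side). With a replicate block the difference of the members was 13.6% (exact sign-flip p = 0.500, the smallest possible with 2 pairs). Same-numbered libraries did not deviate together (correlation 0.00242 over 7958 genes), and nothing in the labels pairs them. Without the ADP-ribosylation factor genes nothing changed. With the genes under other symbols the difference reversed to -5.00%, and the counts were 44 occupied, 34 kept, 6 lost, 5 gained, 26 covered less and 19 covered more. The set is larger by construction, and the 64 SAUR genes added to it hold 17 of those covered less and 4 of those covered more. Unknown depth limits every missing peak.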
